A study of Rattus norvegicus with 9 samples.

Results

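The genes described here are targets of p53 in the kidneys of rats given colistin methanesulfonate sodium (CMS), which the body converts to colistin, a polymyxin antibiotic. A list of 7 targets, Cdkn1a, Mdm2, Ccng1, Bax, Gadd45a, Btg2 and Bbc3, was matched to the array by gene symbol, and only probe sets annotated to exactly 1 gene were kept. This left 5 genes, of 14217 with such a probe set, and 8 probe sets, of 31042 that are not controls: 3 for Mdm2, 2 for Cdkn1a and 1 each for Ccng1, Gadd45a and Bbc3. The probe set listed for Bax also names a second gene and was left out by that rule, and Btg2 and the gene of p53 itself were not analysed here.

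Sprague-Dawley rats, an outbred stock, were bought at 8 weeks of age and acclimated for 1 week. They then received daily intraperitoneal injections for 7 days of saline vehicle, 25 mg/kg CMS (CMS25) or 50 mg/kg CMS (CMS50), and no group carries a genetic modification in the labels. Each group had 3 rats, biological replicates per the labels, and each rat gave 1 Affymetrix array of RNA from its whole right kidney. By the labels' histology, vehicle kidneys had no lesion, CMS25 kidneys showed basophilic or dilated tubules, and CMS50 kidneys showed casts, necrosis and degenerating tubules. The deposited values are log2 intensities, and the number of arrays limits the precision.

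p53 is a transcription factor that accumulates when DNA is damaged or a cell is otherwise stressed, and it can halt the cell cycle, support repair or start apoptosis. Cdkn1a encodes p21, which inhibits cyclin-dependent kinases, and Bbc3 encodes PUMA, a BH3-only protein that triggers the mitochondrial pathway of cell death. Mdm2 encodes the ubiquitin ligase that degrades p53, so its induction closes a negative feedback loop, and Ccng1 encodes cyclin G1, which acts on Mdm2 through a phosphatase. Gadd45a encodes a stress protein linked to growth arrest and DNA repair. In the kidney, p21 and PUMA are known from tubule injury by toxicants and ischaemia.

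The sequences before the annotated starts of 4 of these genes are shown with matches to part of the sequence that p53 recognises. The RNA of these genes behaved differently in these kidneys. Each line holds the 250 bases before the start, from RefSeq on build GRCr8, read 5′ to 3′ along the gene, and capitals mark matches to the p53 consensus half-site. RefSeq's table held 5 of the 7 listed genes, Btg2 among them and Bbc3 not. The Cdkn1a stretch precedes 1 annotated start of the gene, and RefSeq also annotates a start within it.
Cdkn1a, chr20:7150682-7150931, plus strand: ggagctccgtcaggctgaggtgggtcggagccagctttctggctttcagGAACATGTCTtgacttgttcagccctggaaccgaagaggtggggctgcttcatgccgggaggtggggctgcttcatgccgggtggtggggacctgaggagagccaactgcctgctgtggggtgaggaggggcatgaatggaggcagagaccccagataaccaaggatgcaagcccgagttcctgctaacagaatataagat
Mdm2, chr7:55200792-55201041, minus strand: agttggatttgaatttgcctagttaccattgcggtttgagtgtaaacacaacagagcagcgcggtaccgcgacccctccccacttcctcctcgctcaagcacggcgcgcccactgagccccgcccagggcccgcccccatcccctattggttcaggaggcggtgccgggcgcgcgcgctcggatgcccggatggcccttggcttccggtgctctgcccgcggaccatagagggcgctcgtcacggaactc
Ccng1, chr10:25684877-25685126, minus strand: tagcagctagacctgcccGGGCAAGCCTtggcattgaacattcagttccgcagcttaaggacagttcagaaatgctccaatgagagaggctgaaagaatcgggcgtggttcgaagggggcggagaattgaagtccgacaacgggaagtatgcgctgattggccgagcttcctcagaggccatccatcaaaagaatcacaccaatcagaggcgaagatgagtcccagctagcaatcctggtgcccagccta
Gadd45a, chr4:97486800-97487049, minus strand: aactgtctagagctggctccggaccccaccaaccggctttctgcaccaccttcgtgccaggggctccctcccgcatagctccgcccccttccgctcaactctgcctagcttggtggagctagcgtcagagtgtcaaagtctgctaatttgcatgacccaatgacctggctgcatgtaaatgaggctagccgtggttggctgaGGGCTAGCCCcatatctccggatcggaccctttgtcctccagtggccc

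Both strands were searched. A single half-site match lay 201 to 192 bases before the start in Cdkn1a, 232 to 223 in Ccng1 and 48 to 39 in Gadd45a. The Btg2 window, searched but not shown, held no match. Only single half-sites were searched for, not full sites, and whether p53 binds at these matches was not tested. No match was in the Mdm2 window, where the known p53 elements lie in the first intron, outside the bases searched. Of all 33469 rat promoter windows of this length in the table, 6.64% hold at least 1 half-site. CCAAT was present 1 time in Mdm2, 3 times in Ccng1 and 1 time in Gadd45a but not in the Cdkn1a window, and 34% of all windows hold it. GGGCGG was present in the Mdm2, Ccng1 and Gadd45a windows, and in 30.5% of all windows. TATAAA was in none of these 4 windows and in 12.9% of all.

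Facts of the whole series that touch these genes are as follows. Markers of the proximal tubule, loop of Henle and distal tubule, and collecting duct were above the intensity minimum (a mean log2 value of 5) in every group, as the kidney label requires, but they were not level. At CMS50 against vehicle 19.6% of all genes tested were called higher and 11.4% lower. All 5 tubule injury markers rose, with a median log2 change of 3.66. In vehicle and CMS25 kidneys 4 of these 5 reached the minimum, against 5 in CMS50, so 1 could pass through its CMS50 values. The summed linear intensity of the 5 ran from 2032 to 4938 in vehicle, 1742 to 3689 in CMS25 and 24496 to 39807 in CMS50 kidneys. Of 5 markers of the loop of Henle and distal tubule 3 fell (median -0.79), with sums of 24488 to 26930, 23581 to 27409 and 8186 to 24317. Of 5 collecting duct markers 2 fell (sums 3876 to 4731, 3587 to 6343 and 2044 to 3517), as did 2 of 4 podocyte markers (1108 to 1887, 1149 to 1635 and 768 to 1071). Without vehicle replicate 1, vehicle replicate 3 or CMS50 replicate 1, each of these last 3 lists had 1 fall. Loop and distal markers also had 1 fall without vehicle replicate 2 or any CMS25 array, collecting duct and podocyte markers 1 each without CMS50 replicate 2, and podocyte markers 4 without vehicle replicate 2. Of 6 proximal tubule markers 1 rose and 2 fell, and their sums of 34846 to 37960 in vehicle and 32644 to 37553 in CMS50 kidneys overlapped. Of 10 macrophage markers, 9 were tested and all 9 rose at CMS50. In vehicle and CMS25 kidneys 8 of the 10 reached the minimum, against 9 in CMS50, so here too 1 could pass through its CMS50 values. Without a minimum, 10 of 10 macrophage markers rose. Their summed linear intensity over all 10 ran from 560 to 638 in vehicle, 487 to 647 in CMS25 and 1176 to 2452 in CMS50 kidneys. Fibroblast and matrix markers summed to 1771 to 2012, 1265 to 2868 and 3303 to 6941 in the same order, whereas all 4 neutrophil markers on the array were below the minimum in every group. The log2 difference between the 3′ and 5′ control probe sets of beta-actin, a reading of RNA quality, was 2.98 ± 0.16 (SD, n = 3) in vehicle and 3.58 ± 0.09 in CMS50 kidneys (two-sided exact permutation p = 0.1, the smallest that 3 against 3 allows). These shifts lie in the same CMS50 kidneys as every CMS50 result below, and their part in it was not tested. In whole-kidney RNA, fewer cells of a type and less RNA per cell cannot be told apart.

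The first comparison asked how the targets stood in CMS50 kidneys against vehicle. Cdkn1a and Bbc3, which serve arrest and apoptosis, rose close to 2-fold, Mdm2 and Ccng1 were not called, and Gadd45a lay lower without passing the test. All 5 genes passed the intensity minimum, and 2 were called, both higher, where 31.1% of all 10337 genes tested were called, 19.6% being called higher and 11.4% lower. The median change of the 5 was 0.08 on the log2 scale, against 0.05 over all genes. A gene was called at a limma p adjusted by Benjamini-Hochberg over all genes under 0.05.

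Cdkn1a (probe set 1388674_at) read 6.50, 6.41 and 6.40 in vehicle replicates 1 to 3, 6.33, 6.01 and 6.33 in CMS25 and 7.61, 7.44 and 7.22 in CMS50. Every CMS50 array was above every other array, and every CMS25 array was below every vehicle array. Of all genes, 30.6% had CMS50 arrays wholly above vehicle and 19.1% wholly below. The CMS50 mean was 1.98-fold the vehicle mean (log2 change 0.99, SE 0.13, adjusted p = 0.00215). Of all genes tested, 6.3% had a larger change in either direction. The call held in all 16 alternative settings, but the change was 0.54 when both Cdkn1a probe sets were averaged. The other one (1387391_at) was dim, with a mean of 3.94 over the 9 arrays, below the minimum. In a limma fit without a minimum its change from vehicle to CMS50 was 0.09 (adjusted p = 0.714). Its CMS50 values of 3.96, 4.12 and 3.95 overlapped the vehicle values of 3.85, 3.95 and 3.97 and the CMS25 values of 3.85, 3.65 and 4.16.

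Bbc3 (1382993_at) read 6.28, 6.11 and 6.44 in vehicle, 6.60, 6.86 and 6.27 in CMS25 and 7.21, 7.23 and 6.89 in CMS50 kidneys. All CMS50 arrays were above all others, and CMS25 overlapped vehicle. The rise from vehicle to CMS50 was 1.78-fold (log2 change 0.83, SE 0.16, adjusted p = 0.00692), and 8.71% of genes changed more. It was called in all 16 alternatives, with log2 changes from 0.75 to 0.94.

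The plot of the 8 probe sets shows both rises beside the members that were not called.

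**Figure D1:**
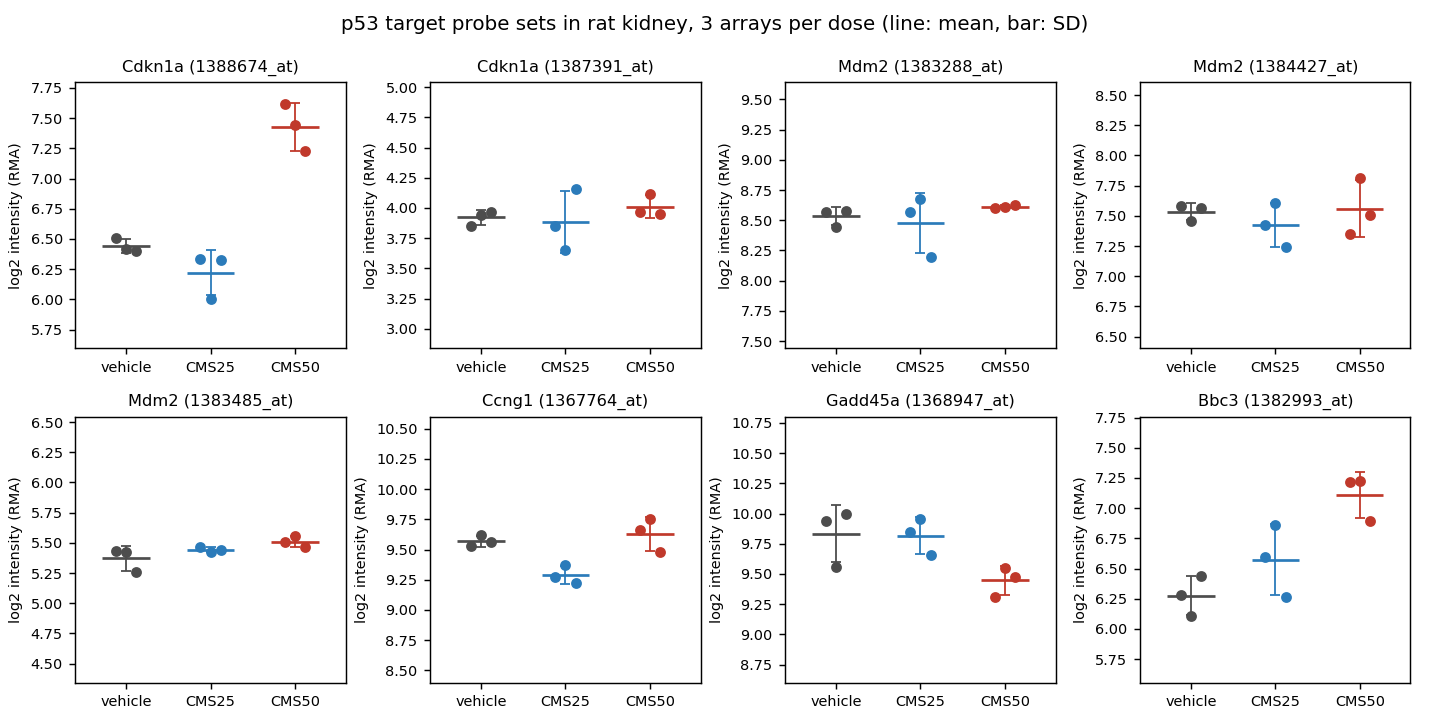
Log2 intensity (vertical axis, the same span of 2.2 log2 units in each panel) of the 8 probe sets of p53 targets in vehicle, CMS25 and CMS50 kidneys; points are single arrays from replicate 1 to 3, lines are means and bars SD (n = 3). The CMS50 points lie above both other groups for Cdkn1a (1388674_at) and, narrowly against CMS25, for Bbc3, and Ccng1 is lowest in CMS25.

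Mdm2 had 3 probe sets, and none was called. The brightest (1383288_at) read 8.57, 8.45 and 8.58 in vehicle, 8.57, 8.68 and 8.20 in CMS25 and 8.60, 8.61 and 8.63 in CMS50. The CMS50 arrays lay just above the vehicle arrays, by far less than for Cdkn1a, and the CMS25 arrays spread around both. The log2 change at CMS50 was 0.08 (95% interval -0.19 to 0.35, adjusted p = 0.643), so the interval leaves out a rise as large as that of Cdkn1a. The probe sets 1384427_at and 1383485_at changed by 0.03 and 0.14 at CMS50, with adjusted p = 0.904 and adjusted p = 0.256 over 17447 probe sets, of which 27% were called and 15.1% were called higher. In that fit of single probe sets, 2 of the 7 member probe sets above the minimum were called, those of Cdkn1a and Bbc3 described above.

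Ccng1 (1367764_at) read 9.53, 9.62 and 9.56 in vehicle, 9.27, 9.37 and 9.22 in CMS25 and 9.66, 9.76 and 9.48 in CMS50. The CMS50 and vehicle arrays overlapped, and all CMS25 arrays were below both. The change from vehicle to CMS50 was 0.06 (95% interval -0.15 to 0.28, adjusted p = 0.635).

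Gadd45a (1368947_at) read 9.93, 9.56 and 9.997 in vehicle, 9.84, 9.95 and 9.65 in CMS25 and 9.31, 9.55 and 9.48 in CMS50. The CMS50 arrays were the lowest 3 of the 9, though CMS50 replicate 2 lay only just under vehicle replicate 2. The CMS50 mean differed from vehicle by -0.39 (SE 0.14, 95% interval -0.69 to -0.08) and missed the threshold (adjusted p = 0.0563). Without vehicle replicate 2, the lowest vehicle array, the difference was -0.52 and was called (adjusted p = 0.0262), and it was also called with a trended, robust variance model (adjusted p = 0.0481). In the other 14 of 16 alternatives it was not called, with differences as small as -0.30 and limma adjusted p up to 0.173. Thus the stress gene Gadd45a had the opposite sign to Cdkn1a and Bbc3 in the same kidneys.

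The second comparison asked what the lower dose did. At CMS25 none of the 5 genes was called, and limma called 0% of the 10337 genes, 0 in the main and in all 16 alternative settings. At an unadjusted p under 0.05 there were 604 genes, 5.84% of those tested, with Ccng1 the only member among them. Ccng1 differed from vehicle by -0.28 (SE 0.09, unadjusted p = 0.0155, adjusted p = 0.778), lower on 3 of 3 arrays. Cdkn1a differed by -0.22 (95% interval -0.50 to 0.07, adjusted p = 0.869), also with all CMS25 arrays below all vehicle arrays, a pattern that 7.65% of genes showed, against 4.45% with all CMS25 arrays above. Bbc3 differed by 0.30 (95% interval -0.07 to 0.66, adjusted p = 0.869), Mdm2 by -0.05 (-0.32 to 0.22) and Gadd45a by -0.01 (-0.32 to 0.29). The sign for Gadd45a was positive in 4 of 16 alternatives, and that for Mdm2 in 1.

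The third comparison set CMS50 against CMS25, which shares the CMS50 arrays with the first. Here 3 of 5 members rose, Cdkn1a, Bbc3 and Ccng1, where 30.3% of genes were called, 20.8% were called higher and 9.43% lower. Cdkn1a rose 2.31-fold over CMS25, or 1.21 on the log2 scale (SE 0.13, adjusted p = 0.00123), a change exceeded by 3.77% of genes. Over the alternatives its change ran from 0.665 to 1.307. The dim Cdkn1a probe set (1387391_at) differed by 0.125 in a fit without a minimum (limma adjusted p = 0.551). Bbc3 was 1.45-fold higher (0.54, SE 0.16, adjusted p = 0.0355) and Ccng1 1.27-fold higher (0.34, SE 0.09, adjusted p = 0.0248). All 3 genes had CMS50 arrays wholly above CMS25, as did 30.4% of all genes, and Gadd45a had them wholly below, as did 15.3%. Among single probe sets, 3 of 7 member probe sets were called, those of the same 3 genes, where 25.6% of 17447 were called and 16.3% were called higher. The calls of Bbc3 and Ccng1 are less firm than that of Cdkn1a. Both were lost with only the 2 groups fitted and without CMS25 replicate 1, CMS25 replicate 3, CMS50 replicate 1 or CMS50 replicate 2, and that of Bbc3 also without vehicle replicate 1. Adjusted p over the alternatives ran from 0.0196 to 0.116 for Bbc3 and from 0.00989 to 0.0946 for Ccng1. Gadd45a differed by -0.37 (SE 0.14, adjusted p = 0.0628). It was called after cyclic loess scaling (adjusted p = 0.0454) and without vehicle replicate 2 (adjusted p = 0.0393). In the other 14 of 16 alternatives it was not called, with limma adjusted p up to 0.183. Mdm2 differed by 0.13 (95% interval -0.14 to 0.41, adjusted p = 0.422).

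**Figure D2:**
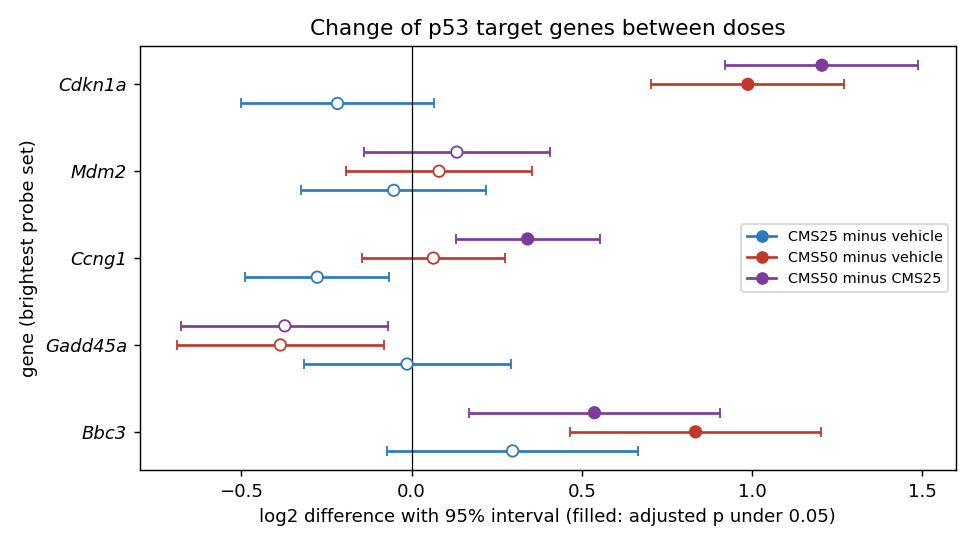
Log2 difference (horizontal axis) with its 95% interval for the brightest probe set of each of the 5 genes in the 3 comparisons; filled points have an adjusted p under 0.05. Cdkn1a and Bbc3 are filled for both comparisons with CMS50, Ccng1 only for CMS50 minus CMS25, and every CMS25 minus vehicle point is open.

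Ordered by level, Cdkn1a ran CMS25, vehicle, CMS50 and Ccng1 did too, whereas Bbc3 ran vehicle, CMS25, CMS50. In each of these orders the first 2 groups were not called different. For Ccng1 vehicle and CMS50 were not called different either (0.06, limma adjusted p = 0.635), and their arrays overlapped. Whether the step from 25 to 50 mg/kg differed from the step from 0 to 25 mg/kg was tested as CMS50 minus 2 times CMS25 plus vehicle. It was called for 46 genes, or 0.445% of those tested (0.397% positive and 0.0484% negative), and Cdkn1a was the only member among them (1.42, SE 0.22, adjusted p = 0.0359). That call did not last: it was lost with cyclic loess scaling, with averaged probe sets and without any 1 of the 3 vehicle arrays, the 3 CMS25 arrays or CMS50 replicates 1 and 2, with adjusted p up to 0.112. Without CMS50 replicate 3 it held (adjusted p = 0.00609), and Ccng1 was called as well (0.69, adjusted p = 0.0246). For Bbc3 the value was 0.24 (95% interval -0.40 to 0.88, adjusted p = 0.616), so its steps were not shown to differ.

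CMS50 replicate 3 was nearest to vehicle in both called genes. Cdkn1a lay 1.17, 1.00 and 0.78 above the vehicle mean in CMS50 replicates 1 to 3 on the log2 scale, and Bbc3 0.94, 0.95 and 0.61. Without replicate 3 the changes from vehicle were 1.09 for Cdkn1a and 0.94 for Bbc3, both called.

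The members did not move as 1 block across the 9 arrays. As a description, with arrays that share doses, Pearson's r was 0.73 between Cdkn1a and Bbc3, 0.67 between Cdkn1a and Ccng1, 0.28 between Cdkn1a and Mdm2 and -0.80 between Cdkn1a and Gadd45a. Among all genes tested, those most like Cdkn1a over the 9 arrays were Eef2, which encodes the translation elongation factor that moves the ribosome (r = 0.987), Stmn1, which encodes the microtubule regulator stathmin (r = 0.983), and Myef2 (r = 0.982). Eef2, Stmn1 and Myef2 differed by 0.70, 1.1 and 0.46 at CMS50 against vehicle on the log2 scale. Those most like Bbc3 were Chd4, a chromatin remodeller (r = 0.990), Sltm (r = 0.984) and Oxa1l, a mitochondrial membrane insertase (r = 0.978), with changes of 0.31, 0.24 and 0.46.

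Upstream of the targets, 15 of 19 genes on a list of the p53 family and its regulators had a probe set and 10 passed the minimum. At CMS50 against vehicle 1 rose, 1 fell and 8 were not called, with a median of -0.16. These 2 of 10 are not far from the 31.1% called among all genes, and whether the shares differ was not tested. The acetyltransferase gene Kat5 rose by 0.39 (SE 0.09, adjusted p = 0.0120), a call that was lost without CMS50 replicate 2 (adjusted p = 0.0504). Hipk2, a kinase that phosphorylates p53 to promote apoptosis, fell by 0.49 (SE 0.08, adjusted p = 0.00397) and was called in all 16 alternatives. Mdm4, the partner of Mdm2 in restraining p53, varied widely. It read 7.75, 6.93 and 8.24 in vehicle, 8.03, 7.86 and 7.92 in CMS25 and 8.39, 6.63 and 6.98 in CMS50. Its CMS50 and vehicle arrays overlapped (change -0.30, 95% interval -1.30 to 0.69, adjusted p = 0.635), and the value was -0.83 without CMS50 replicate 1 and 0.05 without CMS50 replicate 2.

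Further p53 targets were split by role in the same way. Of 13 listed for arrest and DNA repair, 9 were tested, and 3 rose and 0 fell at CMS50, with a median of 0.24. These 3 of 9 are near the 31.1% of all genes called in either direction, of which 19.6% were called higher and 11.4% lower. Whether rises exceeded their share was not tested. Rprm, which encodes the arrest protein reprimo, rose by 1.54 (SE 0.39, adjusted p = 0.0184) and Plk2, a stress-induced kinase, by 1.16 (SE 0.29, adjusted p = 0.0168). Both calls were lost without vehicle replicate 2 and without CMS50 replicates 1 or 2, and that of Rprm also without vehicle replicate 1, so the count of rises was 1 without CMS50 replicate 1 or 2. With a minimum mean of 6 in place of 5, the list had 0 rises among 5 tested, since Rprm, Plk2 and Gtse1 had means of 5.63, 5.86 and 5.74 and were left out. Gtse1, which is expressed in dividing cells and exports p53 from the nucleus, rose by 0.55 (SE 0.11). The repair genes Ddb2 and Xpc were not called (-0.09, adjusted p = 0.622, and 0.24, adjusted p = 0.111), nor was Zmat3 (-0.08, adjusted p = 0.636).

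Of 15 listed apoptosis targets, 10 were tested, and 4 rose, 1 fell and 5 were not called, with a median of 0.14, where 19.6% of all genes were called higher and 11.4% lower. Apaf1, the scaffold of the apoptosome, rose by 1.12 (SE 0.19, adjusted p = 0.00415). It read 5.65, 5.90 and 5.71 in vehicle and 6.94, 7.12 and 6.55 in CMS50 kidneys. Phlda3, an inhibitor of the survival kinase Akt, rose by 0.97 and Siva1, a proapoptotic adaptor, by 0.80 (adjusted p = 0.0116 and adjusted p = 0.00692). The membrane protein gene Perp rose by 0.29 (adjusted p = 0.0369), but its call was lost in 8 of 16 alternatives, 5 of which each leave out 1 array (any vehicle array, CMS50 replicate 1 or CMS50 replicate 2). Triap1, which encodes an inhibitor of apoptosis, fell by 0.52 (SE 0.12, adjusted p = 0.0111). With a gene's probe sets averaged, the changes of Apaf1 and Siva1 were 0.57 and 0.37, still called.

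Among 20 listed targets in metabolism, redox balance and secretion, 15 were tested, and 3 rose, 2 fell and 10 were not called, with a median of 0.03. These 5 of 15 are near the 31.1% called among all genes. The stress transcription factor gene Atf3 read 4.19, 4.88 and 4.54 in vehicle and 7.66, 7.41 and 6.42 in CMS50 kidneys. Its rise of 2.63 (SE 0.30, adjusted p = 0.00174) starts from a vehicle mean below the minimum, so the size is approximate. The CMS25 mean of 4.65 was below it too, so Atf3 was tested only because of its CMS50 values. Gdf15, a secreted stress cytokine, rose by 1.55 (SE 0.22, adjusted p = 0.00275), from 5.42, 5.52 and 5.82 to 7.20, 7.61 and 6.61. For Atf3 and Gdf15 too, CMS50 replicate 3 was the lowest CMS50 array. Ninj1, a membrane protein gene, rose by 0.61, whereas Igfbp3, which binds insulin-like growth factors, fell by 1.5 (SE 0.33, adjusted p = 0.0106) and the epoxide hydrolase gene Ephx1 fell by 0.54. The sestrin genes Sesn1 and Sesn2, stress-induced inhibitors of mTORC1, were not called (-0.06, adjusted p = 0.779, and 0.03, adjusted p = 0.893).

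**Figure D3:**
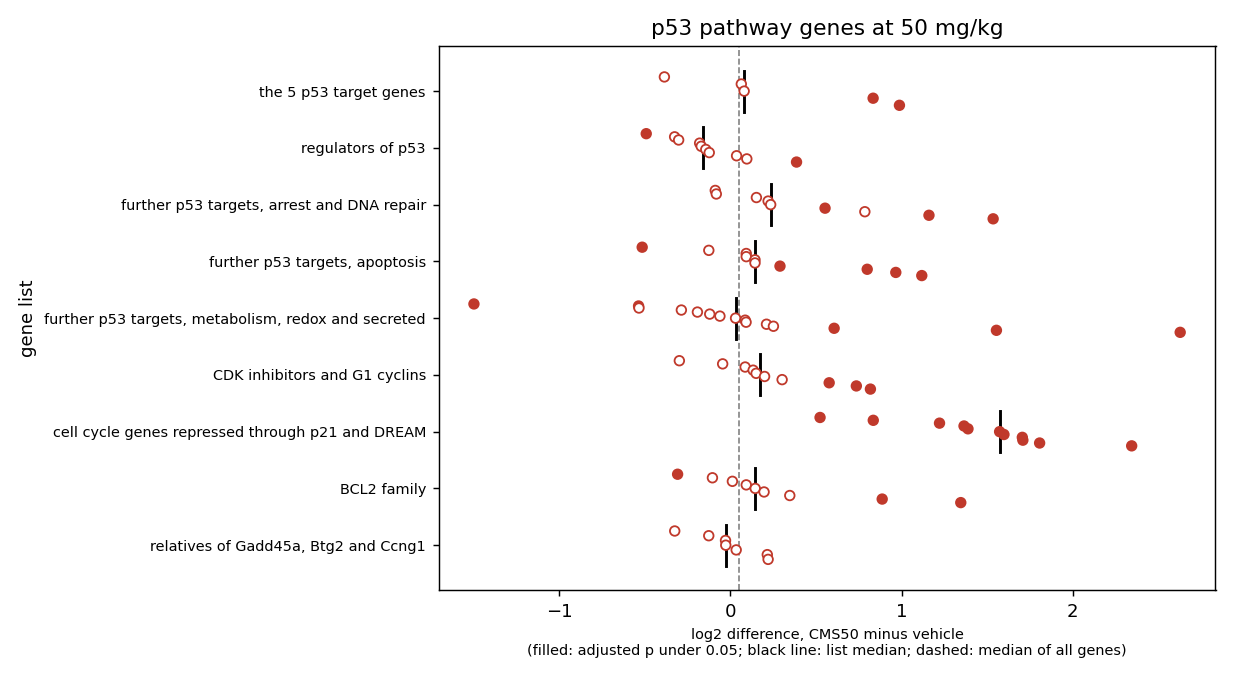
Log2 difference between CMS50 and vehicle (horizontal axis) of each tested gene in the 5 p53 targets and 8 related lists (rows); filled points have an adjusted p under 0.05, black lines are list medians and the dashed line is the median of all genes, 0.05. The cell cycle list lies wholly to the right, with a median of 1.57, and the other medians lie between -0.16 and 0.24.

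The genes that p21 and Bbc3 act with were set beside them. Of 14 other CDK inhibitors, cyclin-dependent kinases and cyclins of the G1 phase, 10 were tested, and 3 rose and 0 fell, with a median of 0.17. This is again near the 31.1% of all genes called in either direction, while 19.6% were called higher. Whether rises exceeded that share was not tested. Cdk4, a kinase that p21 binds, rose by 0.82 (SE 0.11, adjusted p = 0.00251), and Ccnd1, its cyclin partner, by 0.74 (SE 0.17, adjusted p = 0.0139). The inhibitor gene Cdkn2c rose by 0.58 in its brightest probe set (adjusted p = 0.00718) but had a change of 0.03 with its probe sets averaged, and the Ccnd1 call was lost with averaged probe sets and without CMS50 replicate 2. The p21 relative Cdkn1b was not called (0.15, adjusted p = 0.239), nor was Cdkn1c (-0.30, adjusted p = 0.172).

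Cell cycle genes of the later phases are known to be repressed through p21 and the DREAM complex when p53 is active. Of 16 listed, 15 had a probe set and 11 passed the minimum, and these 11 rose at CMS50 with a median of 1.57, where 19.6% of all genes were called higher. Because the minimum uses the mean over all arrays, genes dim in vehicle, such as Mki67 with a vehicle mean of 4.74, could pass through their CMS50 values. Without a minimum, 15 of 15 rose. Mki67, the proliferation marker, rose by 2.34 (SE 0.33, adjusted p = 0.00251) and Prc1, a spindle midzone protein gene, by 1.81 (SE 0.17, adjusted p = 0.000767). Cdkn1a was therefore high in the same 3 kidneys in which these genes were high. The order of the 3 differed, since Cdkn1a was highest in CMS50 replicate 1 and the cell cycle median in CMS50 replicate 2 (1.40, 2.14 and 1.09 above the vehicle mean in replicates 1 to 3). In the third comparison all 11 also rose, with a median of 1.69, and at CMS25 against vehicle 0 of 11 were called.

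**Figure D4:**
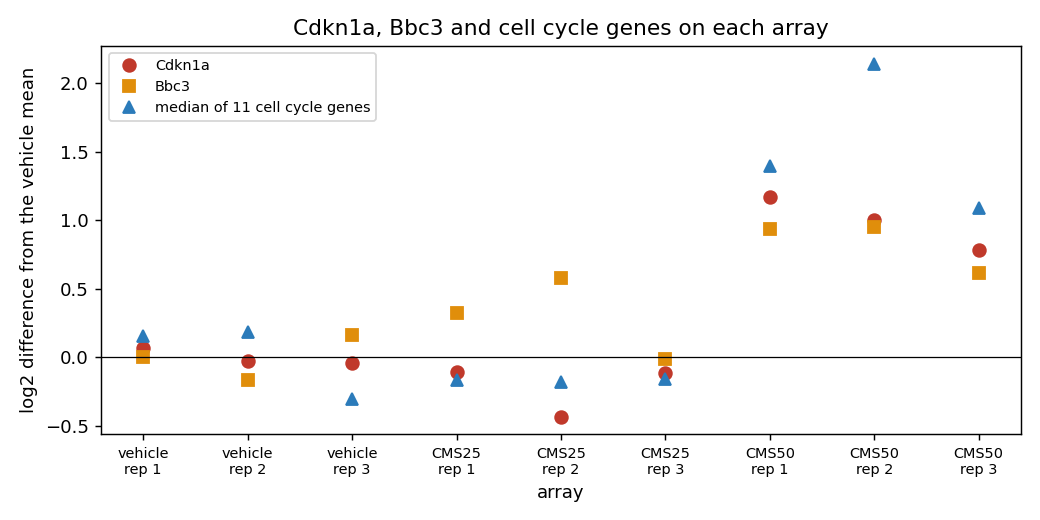
Log2 difference from the vehicle mean (vertical axis) on each of the 9 arrays for Cdkn1a (circles), Bbc3 (squares) and the median of 11 cell cycle genes (triangles). On the CMS50 arrays Cdkn1a lies at 1.17, 1.00 and 0.78 and the cell cycle median at 1.40, 2.14 and 1.09, while the vehicle and CMS25 arrays stay near or below 0 for both. Bbc3 lies at 0.32, 0.58 and -0.01 on the CMS25 arrays and at 0.94, 0.95 and 0.61 on the CMS50 arrays.

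Within the BCL2 family, to which Bbc3 belongs, 13 of 14 listed genes had a probe set and 9 were tested, with 2 rises, 1 fall and a median of 0.15, a share near the 31.1% called among all genes. Bcl2l11, which encodes the BH3-only protein BIM, rose by 0.89 (SE 0.16, adjusted p = 0.00506), from 6.34, 6.73 and 6.67 in vehicle to 7.63, 7.53 and 7.24 in CMS50 kidneys. Bcl2a1, an antiapoptotic member expressed in leukocytes, rose by 1.35 (SE 0.21, adjusted p = 0.00312), in the same kidneys in which the macrophage markers rose. Whether these rises are linked was not tested. Bcl2l2, which is antiapoptotic, fell by 0.31 (adjusted p = 0.0375), a call lost in 6 of 16 alternatives, which were averaged probe sets and leaving out vehicle replicates 2 or 3 or any 1 of the CMS50 arrays. The antiapoptotic genes Mcl1 and Bcl2l1 were not called (0.35, adjusted p = 0.0529, and 0.15, adjusted p = 0.387), nor was the BH3-only gene Bid (0.09, adjusted p = 0.435).

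The closest relatives of Gadd45a and Ccng1 gave no call in the main setting. Of 8 listed relatives of Gadd45a, Btg2 and Ccng1, 7 were tested with 0 rises and 0 falls at CMS50 and a median of -0.03. Of all genes tested, 31.1% were called, 19.6% higher and 11.4% lower. Without CMS50 replicate 3 the list had 1 fall. Gadd45b and Gadd45g, stress sensors of the same family, differed from vehicle by 0.22 (adjusted p = 0.245) and -0.03 (adjusted p = 0.932), and Ccng2, the cyclin G2 gene, by -0.13 (adjusted p = 0.410). Btg1, an antiproliferative gene, differed by 0.22 (adjusted p = 0.241).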

How the data were processed

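The deposited table holds log2 values made by the authors with RMA in Affymetrix Expression Console, per the submitters' processing notes, for which no version is given in the sources used here. Because RMA equalises the distributions of the arrays, a shift shared by all genes is invisible, and dim probe sets give changes that are too small. The table has 31099 probe sets on 9 arrays and was not normalized further. Of 31042 that are not controls, 20826 had 1 gene symbol, 436 several and 9780 were not listed in the platform annotation, an older release whose symbols were checked by gene identifier against RefSeq's GRCr8 table. Each of 14217 genes was read from its probe set with the highest mean, and the 10337 with a mean of at least 5 were tested.

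One linear model over the 3 groups was fitted per gene in R 4.3.3 by limma 3.58.1, using lmFit and then eBayes, with Benjamini-Hochberg adjustment over all genes. A second fit tested 17447 single probe sets. The fit was tested on simulated data. The members, lists and tests were chosen with earlier results of these data known. Named genes are every member, up to 6 called genes of each list, Mdm4 and the 3 genes most correlated with each called member; other genes were named after their values were seen. By the labels, same-numbered replicates share only a number. Of 9 such pairs, 3 had deviations correlated above 0.1, and the values ran from -0.183 to 0.263. Whether they shared a batch cannot be told from these values. Labels give no hybridisation day. Figures used matplotlib 3.10.9 under Python 3.11.15.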

Additional observations from a re-analysis of the deposited data

How the results depend on the processing

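The calls of Cdkn1a and Bbc3 at CMS50 against vehicle, and of Cdkn1a at CMS50 against CMS25, held in all 16 alternatives. Leaving out 1 array gave 1630 to 3526 called genes and 2 to 3 called members for CMS50 minus vehicle, 1521 to 3506 and 1 to 4 for CMS50 minus CMS25, and 0 to 1078 and 0 to 2 for CMS50 minus 2 times CMS25 plus vehicle. With only the 2 groups compared, 1 member was called for CMS50 minus CMS25. For the difference of steps, 0 members were called with cyclic loess and with averaged probe sets, and 78 genes with trend and robust fitting. Signs turned only for values that were not called: Gadd45a at CMS25 against vehicle was 0.035 with cyclic loess and -0.148 to 0.07 with 1 array left out. Over the same leave-outs, Mdm2 ran from -0.15 to 0.088 at CMS25 against vehicle, from -0.008 to 0.231 at CMS50 against CMS25 and from -0.096 to 0.381 for the difference of steps. Bbc3 ran from -0.067 to 0.524 for that difference and Mdm4 from -0.831 to 0.049 at CMS50 against vehicle. Without CMS25 replicate 3 the signs of Mdm2 and Bbc3 turned, and without CMS50 replicate 2 that of Mdm4. The replicate block left 2 members called for CMS50 minus vehicle, as without it, and changed no member's call; the Perp call was lost under it (adjusted p = 0.0517). The cause of these changes was not tested.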
